A study of Mus musculus with 10 samples.

Results

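The 10 genes described here encode the machinery that displays intracellular peptides on major histocompatibility complex (MHC) class I molecules. They are the classical heavy chains *H2-K1* and *H2-D1* and the light chain *B2m*, the peptide transport and loading genes *Tap1*, *Tap2* and *Tapbp*, the immunoproteasome subunits *Psmb8*, *Psmb9* and *Psmb10*, and the transactivator *Nlrc5*. The rows were taken from the count table by the Ensembl identifiers that GENCODE M21 pairs with these symbols on GRCm38. All 10 were found among the 45706 genes of the table, and all 10 were among the 14550 genes tested after the filter on low counts.

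RNA was sequenced from 10 whole melanomas of C57BL/6 hosts 8 weeks old, taken on day 4 after injection of tumor cells. The cells came from a *Braf*-mutant mouse melanoma line that lacks p16INK4a. Of the 10 tumors, 4 were *Ptgs*+/+ (wild-type tumor cells, COX-competent), 3 were *Ptgs*-/- (the same line made deficient in *Ptgs1* and *Ptgs2*, which encode COX-1 and COX-2, by CRISPR/Cas9), and 3 were *Ptgs*-/- tumors grown in NK cell-depleted mice. By the labels, the depleting cocktail was 200 µg of anti-NK1.1 (clone PK136) with 30 µg of antibody to asialo GM1, given on day 0 and day 2, and the other mice were untreated. The methods of the study describe another schedule and control antibodies for depletion experiments in general, and which applied to these mice cannot be told from the sources used here. The labels do not say whether replicates came from separate mice, and p-values therefore measure the spread between these libraries.

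Class I molecules consist of a heavy chain paired with beta-2 microglobulin. Peptides are cut by the proteasome, whose catalytic subunits are exchanged for the inducible ones of the immunoproteasome under interferon-γ. The TAP1-TAP2 transporter carries the peptides into the endoplasmic reticulum, where tapasin (*Tapbp*) holds the transporter beside the empty class I molecule. NLRC5 acts on class I genes through factors bound to an element called the SXY module, in which the core of the X2 box is TGACG. Its Y box, which binds NF-Y, reads ATTGG. On the opposite strand the same box is spelled CCAAT. T cells read the displayed peptides, and inhibitory receptors of NK cells recognize the class I molecules themselves.

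The 200 bases before the RefSeq start are shown for the 3 chain genes and *Tap1*, because the data compare their levels together and these sequences show what they share (RefSeq, GRCm38.p6). Capitals mark letters that match a motif searched on both strands: the kappa B site (by name), the X2 and Y box letters given above, the interferon-stimulated response element (the letters GAAA occurring again after a gap of 2 bases), and the GAS element (the letters TTC followed after a gap of 3 bases by the letters GAA). The intervals are chr17:34000348-34000547 (minus strand) for *H2-K1*, chr17:35262894-35263093 (plus strand) for *H2-D1*, chr2:122147487-122147686 (plus strand) for *B2m* and chr17:34187356-34187555 (plus strand) for *Tap1*.
H2-K1: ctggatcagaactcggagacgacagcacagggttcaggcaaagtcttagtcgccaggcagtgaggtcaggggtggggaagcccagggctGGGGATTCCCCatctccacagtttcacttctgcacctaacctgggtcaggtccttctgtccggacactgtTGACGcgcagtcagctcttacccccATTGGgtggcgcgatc
H2-D1: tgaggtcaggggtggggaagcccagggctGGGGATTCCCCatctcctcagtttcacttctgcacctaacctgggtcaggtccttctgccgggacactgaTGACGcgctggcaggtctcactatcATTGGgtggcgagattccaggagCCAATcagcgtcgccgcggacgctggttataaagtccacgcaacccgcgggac
B2m: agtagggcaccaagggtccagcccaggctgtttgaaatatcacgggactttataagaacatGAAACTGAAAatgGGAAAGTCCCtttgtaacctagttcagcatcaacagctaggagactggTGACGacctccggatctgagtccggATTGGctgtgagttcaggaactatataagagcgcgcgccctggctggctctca
Tap1: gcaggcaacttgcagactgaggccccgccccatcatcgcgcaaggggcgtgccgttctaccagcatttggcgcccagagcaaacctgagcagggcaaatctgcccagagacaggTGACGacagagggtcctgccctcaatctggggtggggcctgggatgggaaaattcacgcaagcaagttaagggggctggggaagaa

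In *H2-K1*, *H2-D1* and *B2m*, the Y box letters began exactly 25 bases after the first base of the X2 box core. That core began 41 bases before the start in *H2-K1* (the more upstream of its 2 starts in RefSeq), 101 bases before it in *H2-D1* and 78 bases before it in *B2m*. This spacing was looked for elsewhere after it had been seen in the 3 sequences. On either strand it occurred in 31 of 32851 windows of 300 bases (250 before and 50 after a start), or 0.0944%. On the strand of the gene it occurred for 16 of 27025 symbols, among them 3 of the 8 members with a window. Of the 61 other genes of the class I pathway with a window, 1 held it, *H2-M3*, which encodes a class I-like molecule that presents formylated peptides.

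All 3 chain genes also held a match to the kappa B site, which 5.8% of all windows held. *B2m* alone among the 8 matched the letters searched for the interferon-stimulated response element (3.44% of windows), between 139 and 130 bases before its start. Looser forms of this element were not searched, so the other promoters may hold one. *Psmb8* alone matched the letters searched for the GAS element (8.3% of windows). The X2 core and the Y box singly were common, in 20.8% and 37.4% of windows. *Tap1* and *Psmb9* are transcribed away from each other from RefSeq starts with 225 bases between them, so their windows share 275 bases and the TGACG shown for *Tap1* is also in the window of *Psmb9*. *Tap2* and *Nlrc5* had no window in the table.

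Of the members, 7 lie on chromosome 17: *H2-K1* (ENSMUSG00000061232) at 33996017 to 34000347, *Psmb9* (ENSMUSG00000096727) at 34181987 to 34187764, *Tap1* (ENSMUSG00000037321) at 34187553 to 34197225, *Psmb8* (ENSMUSG00000024338) at 34197721 to 34201454, *Tap2* (ENSMUSG00000024339) at 34203527 to 34216321, *Tapbp* (ENSMUSG00000024308) at 33915899 to 33929292 and *H2-D1* (ENSMUSG00000073411) at 35262730 to 35267499. *B2m* (ENSMUSG00000060802) lies on chromosome 2 at 122147686 to 122153083. *Nlrc5* (ENSMUSG00000074151, 94434356 to 94527272) and *Psmb10* (ENSMUSG00000031897, 105935735 to 105938444) lie on chromosome 8. These are whole-gene spans of GENCODE M21 on GRCm38.

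QuantSeq reads come from near the polyadenylation site, which makes a count independent of gene length, and levels of different genes are set side by side below as CPM, the count of a gene per 1000000 counts of its library. Near-identical genes can exchange reads. Of the distinct 50-base words in the last 400 bases of the coding transcripts, 10.2% were shared with other genes for *H2-K1* and 10.1% for *H2-D1*, each sharing most with the other. The share was 3.53% for *Tap1* (with *Tap2*), 4.56% for *Tapbp* (with the overlapping *Zbtb22*) and 0 for the other 6 members. *Psmb9* and *Tap1* overlap each other on opposite strands in GENCODE. *B2m*, *Tap2*, *Tapbp*, *Psmb8*, *Psmb10* and *Nlrc5* also overlap genes outside the members on the opposite strand. Whether the counting used strand is not given in the sources used here.

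The libraries held 8150556 to 12839174 counts. *Ptgs2* lay between 94.4 and 346.6 CPM in *Ptgs*+/+ tumors, between 27.0 and 74.8 CPM in *Ptgs*-/- tumors, and between 40.2 and 49.3 CPM in those of NK cell-depleted mice. The 94.4 CPM was that of *Ptgs*+/+ replicate 3, and the 74.8 CPM that of *Ptgs*-/- replicate 1. *Ncr1*, which encodes the NK cell receptor NKp46, had 0 counts in all 3 libraries of depleted mice and 0.722 to 1.15 CPM in *Ptgs*+/+ tumors. Of the 7 pigment cell genes listed, *Tyrp1* and *Mlana* were at 0 in all *Ptgs*+/+ libraries. There *Mitf* was at 17.4 to 29.8 CPM and *Sox10* at 1.48 to 5.53 CPM. *Pmel* was at 0.351 to 0.732 CPM, *Dct* at 0.0779 to 0.702 CPM and *Tyr* at 0 to 0.105 CPM. The titles carry a code, EB042 for *Ptgs*+/+ replicate 4 and *Ptgs*-/- replicate 3 and EB046 for the other 8 libraries, and the labels do not say what it stands for.

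Among them, 2 libraries stood apart from the rest. In *Ptgs*+/+ replicate 3, 169 of 9641 genes that had at least 5 CPM in every other library were under 0.5 times the lowest of them, and in *Ptgs*-/- replicate 1 this held for 73 of 9606 genes. In each of the other 8 libraries it held for 11 genes or fewer. *Tap2* was the gene furthest under the other libraries in *Ptgs*+/+ replicate 3, at 0.0994 times the lowest of them, and *Psmb9* stood at 0.571 times. Results for these members are therefore also given without that library. Of the pathway genes named below, *H2-M3* stood at 0.511 times in it. The levels of *H2-M3* and the subunit ratios given below include that library.

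Loss of the COX enzymes went with higher class I machinery. Of the 10 members, 9 rose from *Ptgs*+/+ to *Ptgs*-/- tumors at an adjusted p at or under 0.05 (edgeR quasi-likelihood test, Benjamini-Hochberg over all genes tested), where 12.1% of all genes were higher by the same rule. None was lower. The median log2 fold change over the members was 1.13 against -0.0060 over all genes. With the added requirement of a log2 fold change of at least 1.5, *Tap1* and *Psmb9* remained, 2 of 10, against 3.14% of all genes. In the same 9 members every *Ptgs*-/- library lay above every *Ptgs*+/+ library, which 18.1% of all genes tested also showed. Within the libraries of code EB046 alone, 8 of 10 passed, and *Tapbp* did not (log2 fold change of 0.68, adjusted p = 0.0543). The share of all genes that passed within these libraries is not given here.

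The depleted group had mean levels between those of the other groups for all 10 members. With NK cells depleted, 5 of 10 members (*H2-D1*, *B2m*, *Tap1*, *Psmb8* and *Psmb9*) were higher than in *Ptgs*+/+ tumors, against 6.63% of all genes, and none passed with a log2 fold change of at least 1.5 (2.01% of all genes). In 9 of 10 members, all but *Tap2*, the libraries of depleted mice all lay above the *Ptgs*+/+ libraries (15.1% of all genes). Between *Ptgs*-/- tumors of untreated and of depleted mice, 0 of 10 members passed in the main test, against 0.515% of all genes higher in untreated mice, 0.323% higher by a log2 fold change of at least 1.5 and 0.921% lower. Summed over the 10 members, the genes made up 0.273% to 0.384% of the counts in *Ptgs*+/+ tumors, 0.576% to 0.844% in *Ptgs*-/- tumors and 0.516% to 0.544% in those of depleted mice.

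**Figure D1:**
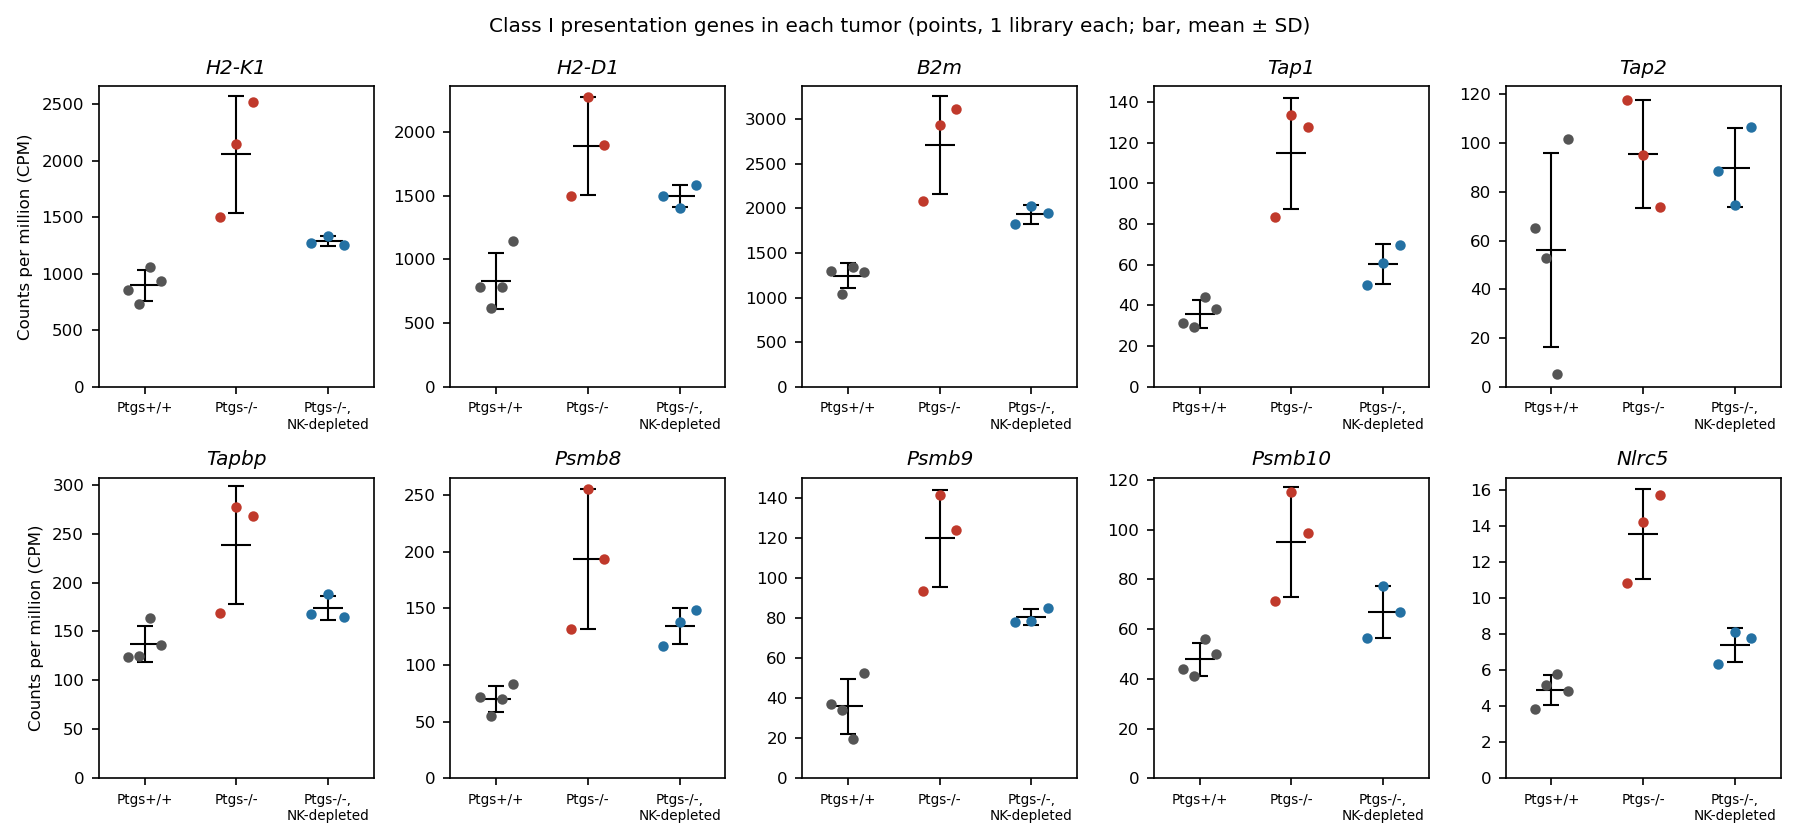
Level of each member in CPM (y axes, linear from 0) in the 4 *Ptgs*+/+, 3 *Ptgs*-/- and 3 NK cell-depleted *Ptgs*-/- tumors; each point is 1 library and the bar is the mean ± SD. All *Ptgs*-/- points lie above all *Ptgs*+/+ points except for *Tap2*, whose lowest *Ptgs*+/+ library is at 5.27 CPM.

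*B2m* was the most abundant member. Its levels were 1298, 1036, 1348 and 1293 CPM in *Ptgs*+/+ tumors, 2085, 2936 and 3115 CPM in *Ptgs*-/- tumors, and 1824, 2028 and 1948 CPM in depleted mice. The 3 groups did not overlap, although *Ptgs*-/- replicate 1 lay just above the highest library of depleted mice. *B2m* rose with COX loss by a log2 fold change of 1.07 ± 0.14 (SE; adjusted p = 0.000425) and was also higher in depleted mice than in *Ptgs*+/+ tumors (0.61 ± 0.14, adjusted p = 0.0142). The difference between untreated and depleted mice was 0.46 ± 0.15 (adjusted p = 0.235).

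*H2-K1*, which encodes the heavy chain of H-2K, stood at 854, 734, 1063 and 939 CPM in *Ptgs*+/+ tumors, at 1501, 2146 and 2517 CPM in *Ptgs*-/- tumors and at 1270, 1336 and 1255 CPM in depleted mice. These groups did not overlap either, and the depleted libraries lay close together. It rose with COX loss by 1.13 ± 0.16 (adjusted p = 0.000699). In depleted mice its log2 difference from *Ptgs*+/+ tumors was 0.49 ± 0.16 (adjusted p = 0.0701), and its difference from untreated *Ptgs*-/- tumors was 0.64 ± 0.17 (adjusted p = 0.132).

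*H2-D1*, the heavy chain of H-2D, had 783, 621, 782 and 1142 CPM in *Ptgs*+/+ tumors, 1499, 2274 and 1903 CPM in *Ptgs*-/- tumors, and 1498, 1408 and 1586 CPM in depleted mice. The last 2 groups overlapped, since *Ptgs*-/- replicate 1 was at the level of the depleted libraries. Its rise with COX loss was of the same size as that of *H2-K1* (1.13 ± 0.18, adjusted p = 0.00141). In depleted mice *H2-D1* was still higher than in *Ptgs*+/+ tumors (0.82 ± 0.18, adjusted p = 0.0132), and its difference from untreated mice was 0.31 ± 0.20 (adjusted p = 0.617).

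The 2 heavy chains were close in level. The ratio of *H2-K1* to *H2-D1* within a library averaged 1.11 ± 0.224, 1.09 ± 0.204 and 0.863 ± 0.0800 (SD; n = 4, 3 and 3) for *Ptgs*+/+, *Ptgs*-/- and depleted tumors. In single libraries it ran from 0.822 to 1.36 in *Ptgs*+/+ tumors, from 0.944 to 1.32 in *Ptgs*-/- tumors and from 0.791 to 0.949 in depleted mice, so that all 3 groups overlapped.

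*Tap1*, a subunit of the peptide transporter, had the largest rise after that of *Psmb9*. It was at 31.2, 29.3, 44.3 and 38.4 CPM in *Ptgs*+/+ tumors, 83.2, 133.4 and 127.5 CPM in *Ptgs*-/- tumors and 50.1, 60.7 and 69.6 CPM in depleted mice. The groups were fully apart, with the depleted libraries between the others. With COX loss it rose by 1.62 ± 0.19 (adjusted p = 0.000243), a 3.07-fold difference, and in depleted mice it was higher than in *Ptgs*+/+ tumors by 0.72 ± 0.19 (adjusted p = 0.0287). The call in depleted mice was lost without *Ptgs*+/+ replicate 1, *Ptgs*+/+ replicate 2 or depleted replicate 2 or 3 (adjusted p = 0.0764, 0.0811, 0.0850 and 0.122) and within code EB046 (adjusted p = 0.0584).

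*Tap2*, its partner, was the exception among the members. Its levels were 65.1, 53.0, 5.27 and 101.7 CPM in *Ptgs*+/+ tumors, 117.8, 95.1 and 73.8 CPM in *Ptgs*-/- tumors, and 88.4, 74.4 and 106.7 CPM in depleted mice. All 3 groups overlapped, and the value of *Ptgs*+/+ replicate 3 rested on 60 counts. The log2 difference with COX loss was 0.72 ± 0.58 (adjusted p = 0.411), and without *Ptgs*+/+ replicate 3 it was 0.33 ± 0.23 (adjusted p = 0.316). *Tap1* in the same comparison without that library rose by 1.74 ± 0.18 (adjusted p = 0.000222).

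*Tapbp*, which encodes tapasin, was at 124, 125, 164 and 136 CPM in *Ptgs*+/+ tumors, 168.9, 277.6 and 268.0 CPM in *Ptgs*-/- tumors and 168.2, 188.5 and 165.1 CPM in depleted mice. Untreated and depleted *Ptgs*-/- tumors overlapped, and the lowest library of each *Ptgs*-/- group lay just above the highest *Ptgs*+/+ library. It had the smallest rise of the 9 that passed (0.74 ± 0.16, adjusted p = 0.00778). In depleted mice its difference from *Ptgs*+/+ tumors was 0.31 ± 0.16 (adjusted p = 0.252).

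**Figure D2:**
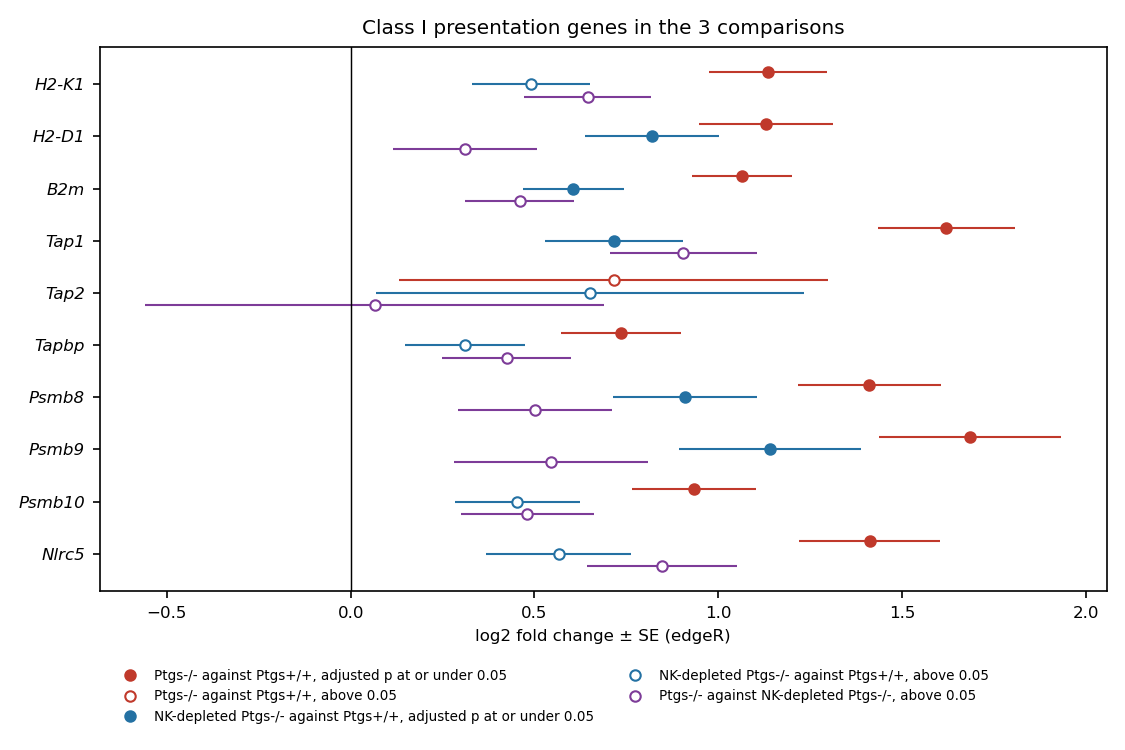
log2 fold change (x axis, ± SE from the edgeR fit) of the 10 members in the 3 comparisons; filled points have an adjusted p at or under 0.05. *Psmb9* and *Tap1* are the furthest to the right for *Ptgs*-/- against *Ptgs*+/+ tumors (1.69 and 1.62), *Tap2* has the widest error, and no point of the comparison of untreated with NK cell-depleted mice is filled.

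The immunoproteasome subunits rose together. *Psmb9*, the inducible β1 subunit, was at 37.3, 34.1, 19.5 and 52.8 CPM in *Ptgs*+/+ tumors, at 93.9, 141.8 and 124.0 CPM in *Ptgs*-/- tumors and at 78.3, 78.4 and 85.3 CPM in depleted mice. The groups were apart. It had the largest rise of the members (1.69 ± 0.25, adjusted p = 0.000847; a 3.22-fold difference), which was 1.48 ± 0.17 (adjusted p = 0.000393) without *Ptgs*+/+ replicate 3. In depleted mice it was 1.14 ± 0.25 above *Ptgs*+/+ tumors (adjusted p = 0.0117), or 0.94 ± 0.17 (adjusted p = 0.00546) without that library.

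*Psmb8*, the inducible β5 subunit, had 71.6, 55.5, 70.0 and 83.3 CPM in *Ptgs*+/+ tumors, 131.6, 255.5 and 194.0 CPM in *Ptgs*-/- tumors and 116.8, 138.1 and 148.3 CPM in depleted mice. Both *Ptgs*-/- groups lay above the *Ptgs*+/+ libraries and overlapped each other. It rose by 1.41 ± 0.20 (adjusted p = 0.000620) with COX loss and was 0.91 ± 0.19 higher in depleted mice than in *Ptgs*+/+ tumors (adjusted p = 0.0109).

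*Psmb10*, the inducible β2 subunit, had a smaller rise. It was at 44.1, 41.2, 56.0 and 49.9 CPM in *Ptgs*+/+ tumors, 71.4, 115.1 and 98.8 CPM in *Ptgs*-/- tumors and 56.5, 77.4 and 66.7 CPM in depleted mice, where the lowest library lay just above the highest *Ptgs*+/+ library. It rose by 0.93 ± 0.17 with COX loss (adjusted p = 0.00264), and its difference between depleted and *Ptgs*+/+ tumors was 0.45 ± 0.17 (adjusted p = 0.106).

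None of the constitutive subunits that these replace was higher. *Psmb5* (replaced by *Psmb8*) fell by 0.55 ± 0.13 on the log2 scale with COX loss (adjusted p = 0.00960), and *Psmb6* (replaced by *Psmb9*) fell by 0.39 ± 0.10 (adjusted p = 0.0168), against 11% of all genes lower by the same rule. *Psmb7* (replaced by *Psmb10*) had a log2 difference of -0.11 (adjusted p = 0.672). In depleted mice compared with *Ptgs*+/+ tumors, none of the 3 passed (adjusted p = 0.0527, 0.172 and 0.807).

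Within a library, the ratio of *Psmb8* to *Psmb5* averaged 1.10 ± 0.283, 4.27 ± 1.66 and 2.74 ± 0.555 (SD; n = 4, 3 and 3) for *Ptgs*+/+, *Ptgs*-/- and depleted tumors. In *Ptgs*+/+ tumors the 2 subunits were thus about equal in tags. For *Psmb9* to *Psmb6* the ratios were 0.132 ± 0.0606, 0.539 ± 0.116 and 0.331 ± 0.0384 in the same order, and for *Psmb10* to *Psmb7* 0.290 ± 0.102, 0.566 ± 0.119 and 0.357 ± 0.0590. The mean log2 ratio was higher in *Ptgs*-/- than in *Ptgs*+/+ tumors by 1.92, 2.14 and 1.0 for the 3 pairs, or 3.79-fold, 4.40-fold and 2.0-fold.

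For the first and the second pair the groups of this comparison did not overlap, and the two-sided exact permutation test gave p = 0.0571, the smallest that 3 against 4 libraries allow (adjusted p = 0.129 over 9 tests). For *Psmb10* to *Psmb7* they overlapped, since *Ptgs*+/+ replicate 3 had a ratio of 0.442 and *Ptgs*-/- replicate 1 one of 0.431 (exact permutation p = 0.114). Between depleted mice and *Ptgs*+/+ tumors the differences were 1.33, 1.45 and 0.35 (exact permutation p = 0.0571, 0.0571 and 0.343). Between untreated and depleted mice they were 0.60, 0.69 and 0.65 (exact permutation p = 0.2, 0.1 and 0.1, where 0.1 is the smallest that 3 against 3 allow).

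**Figure D3:**
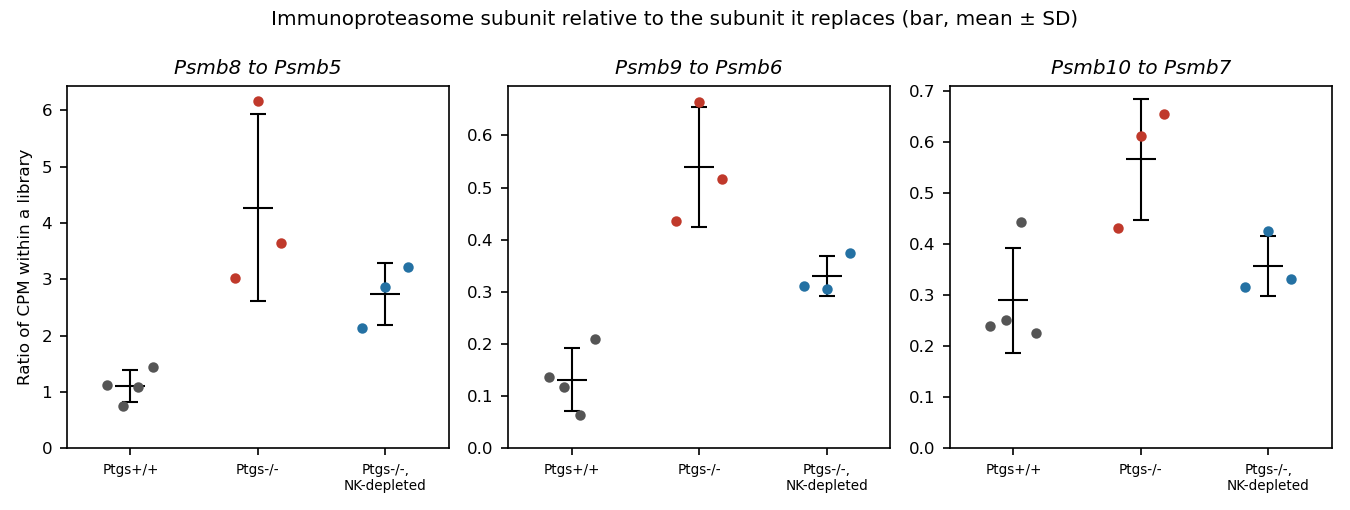
Ratio of the CPM of each immunoproteasome subunit to that of the constitutive subunit it replaces (y axes, linear from 0), 1 point per library with the mean ± SD for the 3 groups. *Psmb8* to *Psmb5* runs from 0.751 to 1.44 in *Ptgs*+/+ tumors and from 3.02 to 6.16 in *Ptgs*-/- tumors, and the depleted libraries, from 2.13 to 3.22, lie above the former and overlap the latter.

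*Nlrc5*, the class I transactivator, was the least abundant member. It had 3.82, 5.15, 5.79 and 4.81 CPM in *Ptgs*+/+ tumors, 10.8, 14.2 and 15.7 CPM in *Ptgs*-/- tumors and 6.31, 8.12 and 7.75 CPM in depleted mice, from 46 or more counts per library. The 3 groups did not overlap. It rose by 1.41 ± 0.19 with COX loss (adjusted p = 0.000582), the same estimate as for *Psmb8*, and its difference between depleted and *Ptgs*+/+ tumors was 0.57 ± 0.20 (adjusted p = 0.0854).

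In order of mean level, *Ptgs*+/+ tumors had *B2m* (1244 CPM), *H2-K1* (897), *H2-D1* (832), *Tapbp* (137), *Psmb8* (70.1), *Tap2* (56.3), *Psmb10* (47.8), *Psmb9* (35.9), *Tap1* (35.8) and *Nlrc5* (4.89). *H2-K1* and *H2-D1* differed by less than the larger of their SDs, as did each pair of neighbors from *Psmb8* to *Tap1*, where the SD of *Tap2* (39.8 CPM) was widened by *Ptgs*+/+ replicate 3. In *Ptgs*-/- tumors the order was *B2m* (2712), *H2-K1* (2055), *H2-D1* (1892), *Tapbp* (238), *Psmb8* (194), *Psmb9* (120), *Tap1* (115), *Tap2* (95.5), *Psmb10* (95.1) and *Nlrc5* (13.6). *Psmb9* and *Tap1* thus stood above *Tap2* and *Psmb10* in the second order and below them in the first, and the neighbors from *Psmb9* to *Psmb10* differed by less than 1 SD of either. In depleted mice the order was *B2m* (1934), *H2-D1* (1497), *H2-K1* (1287), *Tapbp* (174), *Psmb8* (134), *Tap2* (89.8), *Psmb9* (80.7), *Psmb10* (66.9), *Tap1* (60.1) and *Nlrc5* (7.39), in which the heavy chains did not overlap.

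The *Ptgs*-/- tumors differed among themselves in a shared way. Replicate 1 was the lowest of the 3 in 9 of 10 members, with *Tap2* as the exception, where it was the highest. The members' sum was 5763 CPM in replicate 1, 8388 CPM in replicate 2 and 8437 CPM in replicate 3. The sum of the leukocyte markers *Ptprc*, *Coro1a* and *Laptm5* was also lowest in replicate 1 (847 CPM, against 1331 and 1127 CPM). Its part in the members' levels was not tested.

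The comparison of untreated with NK cell-depleted *Ptgs*-/- tumors asks what NK cells contribute. All 10 estimates were positive, that is, higher in untreated mice, from 0.065 for *Tap2* to 0.90 for *Tap1*, with a median of 0.49 against -0.013 over all genes. The members nearest to the threshold were *Tap1* (0.90 ± 0.20, adjusted p = 0.0524) and *Nlrc5* (0.85 ± 0.20, adjusted p = 0.0813), and 7 of 10 had an unadjusted p under 0.05, as had 1630 of the 14550 genes. In 5 members (*H2-K1*, *B2m*, *Tap1*, *Psmb9* and *Nlrc5*) every untreated library lay above every depleted one, against 10.4% of all genes.

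The count of 0 depended on the test, on 2 of the libraries and on other settings: with no filter on low counts, or with the label number as a replicate block, 2 members passed. edgeR's likelihood ratio test and DESeq2 each called 3 members higher in untreated mice (*H2-K1*, *Tap1* and *Nlrc5*; adjusted p = 0.0342, 0.00241 and 0.0132 by the former and 0.0167, 0.00149 and 0.0135 by the latter). Without *Ptgs*-/- replicate 1 the main test called 5 (*H2-K1*, *B2m*, *Tap1*, *Tapbp* and *Nlrc5*), with log2 differences of 0.82, 0.61, 1.08, 0.61 and 0.98. Without *Ptgs*+/+ replicate 3 it called *Tap1* alone (adjusted p = 0.0302). The share of all genes called under each of these settings is not given here, and the 0.515% above belongs to the main test. These counts therefore cannot be set against it.

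The 5 calls in depleted mice against *Ptgs*+/+ tumors also turned on single libraries. Without depleted replicate 3 only *B2m* passed, and without depleted replicate 2 *H2-D1*, *Psmb8* and *Psmb9* did (*B2m*, adjusted p = 0.0603). The adjusted p of the calls lost without replicate 3 were 0.0579 for *H2-D1*, 0.122 for *Tap1*, 0.0541 for *Psmb8* and 0.0516 for *Psmb9*. *H2-K1* passed without *Ptgs*+/+ replicate 3 (0.58 ± 0.16, adjusted p = 0.0340) or without *Ptgs*-/- replicate 1 (adjusted p = 0.0209).

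Tumors contain several cell types that express class I genes, and in bulk RNA a larger number of such cells cannot be told apart from more RNA per cell. The sum of the 3 leukocyte markers was 555 to 630 CPM in *Ptgs*+/+ tumors, 847 to 1331 CPM in *Ptgs*-/- tumors and 768 to 875 CPM in depleted mice, and all 3 genes were higher with COX loss. The 6 macrophage markers summed to 1443 to 1712, 2234 to 3520 and 2044 to 2336 CPM, with 4 of 6 higher. Type 1 dendritic cell markers (5 of 5 higher) summed to 35.1 to 38.2, 88.3 to 152.8 and 87.5 to 99.7 CPM. The 6 T cell markers (4 of 5 tested higher) summed to 3.04 to 3.98, 7.61 to 22.7 and 5.76 to 10.1 CPM. Over all genes, 12.1% were higher with COX loss and 11% lower.

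NK cell markers summed to 15.2 to 36.1, 66.7 to 135.1 and 5.46 to 6.27 CPM in the same order, neutrophil markers to 192.5 to 260.4, 37.8 to 58.5 and 84.2 to 121.0 CPM, and fibroblast markers to 5716 to 7701, 10449 to 12993 and 8042 to 10500 CPM. Skeletal muscle genes summed to 15.9 to 143.5 CPM, 90.3 to 323.2 CPM and 2027 to 4779 CPM, so that all libraries of depleted mice held far more muscle RNA. With COX loss, 5 of 6 tested NK cell markers, 2 of 4 fibroblast markers and 1 of 5 muscle genes were higher. Lower were 3 of 5 tested neutrophil markers and 2 of 3 endothelial markers. The 1 B cell marker tested was higher, and neither of the 2 melanocytic ones tested passed. The parts of these cell types in the members' levels were not tested.

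Set against the summed leukocyte markers of the same library, a scale chosen after the data had been seen, the members kept part of their difference. Most of this sum was *Laptm5* (mean of 488 CPM in *Ptgs*+/+ tumors, against 72.8 for *Ptprc* and 40.8 for *Coro1a*). *Laptm5* also rose least with COX loss (log2 fold change of 0.73, against 1.18 for *Ptprc* and 1.06 for *Coro1a*). The median over the members was 1.13, below the rise of *Ptprc*. The members were not set against each marker alone. The median log2 difference between *Ptgs*-/- and *Ptgs*+/+ tumors was 0.42 on this scale, and it was above 0 in 9 of 10 members. In 5 members (*B2m*, *Tap1*, *Psmb8*, *Psmb9* and *Nlrc5*) the groups still did not overlap, with log2 differences of 0.26, 0.82, 0.58, 0.95 and 0.62. For *H2-K1*, *H2-D1*, *Tap2* and *Psmb10* they overlapped (0.33, 0.35, 0.50 and 0.12), and for *Tapbp* the sign turned (-0.080). No share or median over all genes was computed on this scale, so these counts and the median have nothing to be set against.

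On the same scale, untreated and depleted *Ptgs*-/- tumors did not overlap in *Tap1*, *Psmb9* and *Nlrc5* (0.51, 0.15 and 0.46), and *H2-D1* and *Tap2* were at -0.085 and -0.32. Between depleted mice and *Ptgs*+/+ tumors, *B2m*, *Psmb8* and *Psmb9* did not overlap (0.20, 0.50 and 0.81). Relative to the macrophage markers, the same members did not overlap in each comparison, and the median for COX loss was 0.47. Values over all genes were not computed on either scale. In the main edgeR test *Ptprc* was itself higher in untreated than in depleted *Ptgs*-/- tumors (0.82 ± 0.17, adjusted p = 0.0380), as were 0.515% of all genes. The other markers of the leukocyte sum, *Laptm5* and *Coro1a*, did not pass (0.33 and 0.31, adjusted p = 0.408 and 0.658).

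**Figure D4:**
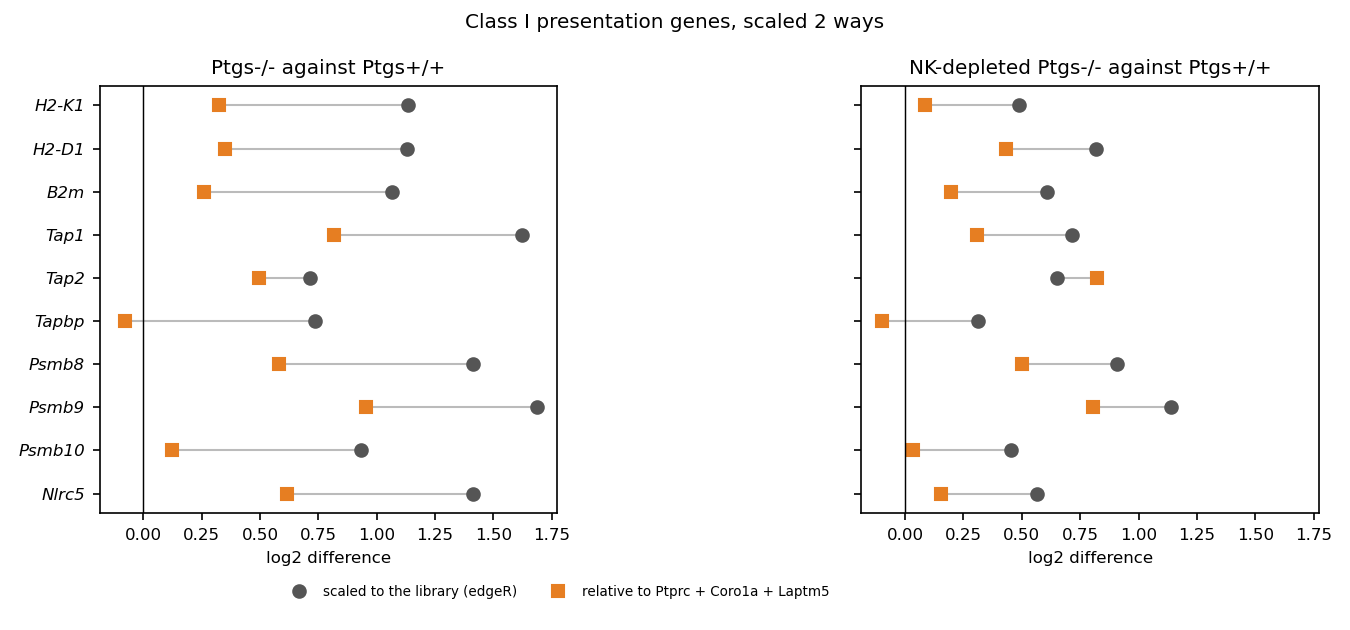
log2 difference of each member from *Ptgs*+/+ tumors (x axes) for untreated (left) and NK cell-depleted (right) *Ptgs*-/- tumors, scaled to the library by edgeR (circles) or as a ratio to the summed *Ptprc*, *Coro1a* and *Laptm5* level of the same library, averaged on the log2 scale (squares). With the second scale *Psmb9* and *Tap1* remain furthest to the right at left (0.95 and 0.82), and *Tapbp* lies below 0 in both panels.

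Of 75 other genes of the class I pathway, 68 were tested, and with COX loss 16 were higher and 7 lower, against 12.1% of all genes higher and 11% lower, so that the count of lower genes was near the share over all genes. Their median log2 fold change was -0.048. The other class I and class I-like chains were the list closest to the members, with 5 of 11 tested genes higher and none lower. These were *H2-Q7* (1.81 ± 0.22, adjusted p = 0.000338), which rose from between 35.2 and 57.8 CPM to between 110.3 and 238.4 CPM, *H2-Q6* (1.79 ± 0.35), *H2-Q4* (1.33 ± 0.34), *H2-M3* (1.24 ± 0.25) and *H2-T24*. *H2-M3* passed under all 19 alternative settings (log2 fold change of 1.02 to 1.57), which include leaving out *Ptgs*+/+ replicate 3. The *H2-Q* genes are close copies of each other and of the classical chains, and reads may have been exchanged between them.

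Among the endoplasmic reticulum chaperones and trimming enzymes, 1 of 9 was higher, near the share of 12.1% over all genes. This was *Tapbpl* (1.02 ± 0.27, adjusted p = 0.0177), which encodes the tapasin-related peptide editor TAPBPR. The proteasome activator subunits *Psme1* and *Psme2*, which form the interferon-inducible 11S cap, rose by 0.56 ± 0.11 and 0.61 ± 0.13 (adjusted p = 0.00443 and 0.00568), whereas *Psme3*, of the nuclear cap, fell by 0.38 ± 0.11. Of the 11 other subunits of the 20S core, 3 were lower (*Psmb4*, -0.54; *Psma2*, -0.43; *Psma7*, -0.31) and none was higher, against 11% of all genes lower and 12.1% higher. Of 6 cytosolic peptidases that trim or destroy peptides, 1 was lower, *Lap3* (-0.38), which is near the share of 11% over all genes.

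Of the 16 transcriptional regulators, 7 were higher with COX loss and none was lower, against 12.1% and 11% of all genes. Among them were *Stat2* (1.51 ± 0.24), *Ciita* (1.47 ± 0.21), the class II counterpart of *Nlrc5*, and *Irf8* (1.42 ± 0.15), and *Irf1* rose by 0.80 ± 0.094 (adjusted p = 0.000260). *Irf1*, an interferon-inducible factor that activates class I genes, was at 138.3, 159.3, 154.5 and 159.1 CPM in *Ptgs*+/+ tumors, at 245.4, 286.0 and 300.0 CPM in *Ptgs*-/- tumors and at 185.7, 192.1 and 200.8 CPM in depleted mice.

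*Irf1* was the single other pathway gene called between untreated and depleted *Ptgs*-/- tumors (0.50 ± 0.10, adjusted p = 0.0341), out of 68. Over all genes, 0.515% were higher by the same rule, and 1 call does not set the list apart from that share. *Irf1* did not overlap between the 3 groups. It passed under 9 of 19 alternative settings, with adjusted p between 0.000233 and 0.173. Without each of *Ptgs*+/+ replicate 4, *Ptgs*-/- replicates 2 and 3 and the 3 depleted libraries in turn, it did not pass. *Ifng* was not tested for want of counts: the *Ptgs*+/+ tumors gave 0, 0, 0 and 2 counts, the untreated *Ptgs*-/- tumors 3, 4 and 7, and the depleted ones 1, 0 and 0. Only the values of 4 and 7 exceeded a floor of 3 counts.

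In depleted mice against *Ptgs*+/+ tumors, 5 of the 68 pathway genes were higher (among them *Ciita*, *H2-M3*, *Irf8* and *H2-Q7*, by 1.10, 0.87, 0.80 and 0.80), near the share of 6.63% over all genes, and 3 were lower (*Psmb4*, *Jak2* and *Psma7*, by -0.41, -0.32 and -0.31), where 5.87% of all genes were lower. *Ciita* and *Irf8* passed under all 19 alternative settings, *H2-Q7* under 13 and *H2-M3* under 9.

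**Figure D5:**
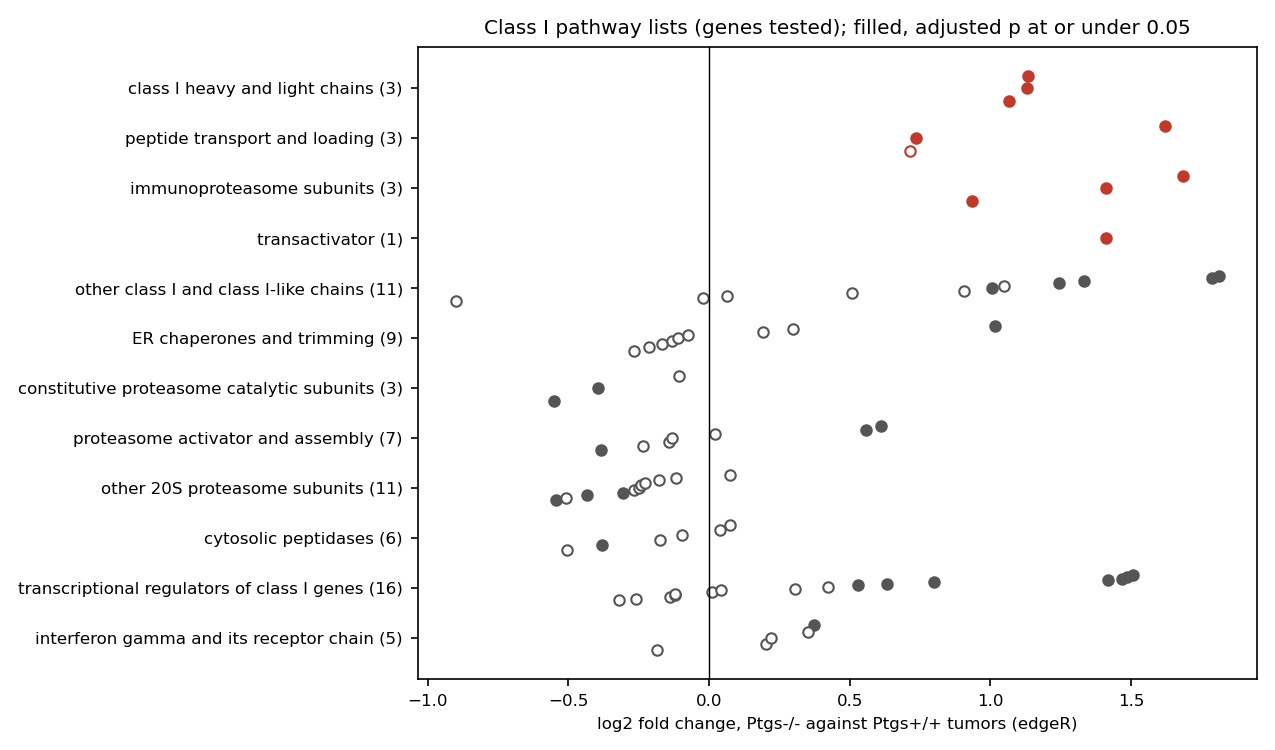
log2 fold change of *Ptgs*-/- against *Ptgs*+/+ tumors (x axis) for the members (red, upper 4 rows) and the other pathway lists (gray), with the number of genes tested in brackets and filled points at an adjusted p at or under 0.05. The members lie between 0.72 and 1.69, the constitutive catalytic subunits and other 20S subunits lie mostly below 0, and the regulators and other class I chains spread on both sides.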

How the data were processed

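Raw counts per gene were deposited by the authors, 1 column per library, with neither normalization nor pooling. The authors trimmed QuantSeq 3′ FWD reads with BBDUK, fqtrim and cutadapt, used STAR for alignment to GRCm38 and featureCounts for counting on the Ensembl annotation. Settings for strand, multi-mapping reads and molecular identifiers are not given in the sources used here.

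Groups came from the submitters' labels. Counts were analyzed with edgeR 4.0.16 in R 4.3.3 (filterByExpr, TMM, quasi-likelihood test) in 1 model of all 10 libraries and 3 contrasts, with Benjamini-Hochberg adjustment over 14550 genes. SE is the absolute log2 fold change divided by the square root of F. A second rule also asked for a log2 fold change of 1.5 or more in size. Ratios were tested with two-sided exact permutation tests (SciPy). The steps were tested on simulated data. Libraries of a group differed by 8.06 to 33.2 in chi-square per degree of freedom, so none was counted more than once. Depth was 8150556 to 12839174 counts, and a floor of 3 counts covers counting error only. Alternatives were DESeq2 1.42.0, a likelihood ratio test, library size alone, other filters, only the groups compared, the title code, a block for the label number, leaving out each library, and scaling to leukocyte or macrophage markers.

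All members were named. Of the pathway lists, genes at an adjusted p at or under 0.05 were named, largest first and at most 4 a list, as were *Psmb5*, *Psmb6*, *Psmb7*, *Irf1* and *Ifng*, and *Ptgs2* and *Ncr1* checked the labels. One gene that the rule names is not reported here. *H2-T24* was named beyond this rule, after its values were seen. The members and lists were chosen with earlier results of these data known. Promoter windows came from RefSeq (GRCm38.p6), with 8 of 10 members matched.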

Additional observations from a re-analysis of the deposited data

How the results depend on the processing

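Under the rule that adds a log2 fold change of at least 1.5, the members that passed were 2 for *Ptgs*-/- against *Ptgs*+/+ tumors and 0 for depleted mice against *Ptgs*+/+ tumors, and the other pathway genes were 3, 0 and 0 in the order COX loss, untreated against depleted, depleted against *Ptgs*+/+. Of all genes, 3.14%, 0.323% and 2.01% were higher by this rule in the same order. The 3 pathway genes, out of 68 tested, were all higher, which is near the share for COX loss. Between untreated and depleted *Ptgs*-/- tumors, 3 members passed by the likelihood ratio test, 3 by DESeq2 and 2 with no filter, and the other pathway genes numbered 6, 5 and 6 under these and 0 with at least 10 counts in every library, with only the 2 groups compared, with the title code as a term or within code EB046. For depleted mice against *Ptgs*+/+ tumors, 5 other pathway genes passed with the title code as a term. When each library was left out, the members called were 9 throughout for COX loss, 0 to 5 for untreated against depleted and 1 to 6 for depleted against *Ptgs*+/+, and the other pathway genes were 17 to 27, 0 to 6 and 2 to 10. Shares of all genes called under the alternative tests, filters and sets of libraries are not given here.

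With the label number as a replicate block, 9, 2 (*Tap1* and *Nlrc5*) and 6 members passed in the order above, and 22, 2 and 8 other pathway genes. Same-numbered libraries of different groups had deviations correlated over 0.1 in 4 of 11 pairs, and differently numbered ones in 8 of 22. The libraries were therefore treated as sharing only a number.

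*Tap2* turned sign between untreated and depleted mice with the title code as a term (-0.052) and with the replicate block (-0.058), and ran from -0.12 (without *Ptgs*-/- replicate 1) to 0.25 (without *Ptgs*-/- replicate 3) when single libraries were left out, also below 0 without depleted replicate 2 (-0.049). Relative to leukocyte and macrophage markers it was -0.32 and -0.25 and *H2-D1* -0.085 and -0.0086, and *Tapbp* was -0.080 and -0.032 for COX loss and -0.098 and -0.13 for depleted against *Ptgs*+/+. The cause was not tested. The subunit ratios kept their sign with 0.5 added to each count, within code EB046 and without each library.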
